A study of Homo sapiens with 27 samples.

Results

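The sterol module described here holds 26 genes, chosen by name among the 24566 rows of the count table, with each Entrez identifier matched to its symbol. It comprises 7 genes of the mevalonate steps (ACAT2, HMGCS1, MVK, PMVK, MVD, IDI1 and FDPS), 3 of the squalene steps (FDFT1, SQLE and LSS), 8 that convert lanosterol to cholesterol (CYP51A1, TM7SF2, MSMO1, NSDHL, HSD17B7, EBP, SC5D and DHCR7), 5 that control the SREBP transcription factors (INSIG1, INSIG2, SREBF1, SREBF2 and SCAP) and 3 that move sterols inside the cell (STARD4, NPC1 and NPC2). All 26 were found in the table and passed the filter on low counts in both cell lines. No receptor for lipoprotein uptake is among them.

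Bulk RNA was sequenced after 48 h from A431, an established human epidermoid carcinoma line, and MDA-MB-231, an established human breast adenocarcinoma line, in 27 libraries of 9 groups with 3 biological replicates each. The A431 groups were untreated, vehicle control, doxorubicin, Compound Kushen Injection (CKI, an extract of the herbs Kushen and Baituling) at 1 mg/ml, and both agents together. For MDA-MB-231 they were untreated, 5-FU (5-fluorouracil) at 10 µg/ml, the same CKI dose, and those agents together. Doxorubicin is an anthracycline that damages DNA, 5-FU is a pyrimidine analogue that blocks thymidylate synthesis, and the make-up of the vehicle, which only A431 cells received, is not given in the sources used here.

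Cells build cholesterol from acetyl-CoA through mevalonate, isoprenoid diphosphates, squalene and lanosterol. When membranes hold little sterol, SCAP escorts the SREBP precursors from the endoplasmic reticulum to the Golgi, where they are cut, and the released fragment enters the nucleus and raises transcription of nearly every enzyme of this route. When sterol is plentiful, INSIG proteins hold SCAP in place, and because INSIG1 and SREBF2 are themselves targets, the circuit feeds back on itself.

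A431 libraries held between 17757206 and 21756536 counts, MDA-MB-231 libraries between 19871048 and 22809339. The lines matched their markers: keratin KRT5 lay at 1430 to 3780 CPM (counts scaled to a common library size with TMM factors) in A431 and at most 3.96 in MDA-MB-231, and VIM (vimentin) at 2.40 to 37.5 and 713 to 1960 CPM, whereas SPARC, listed as a marker of MDA-MB-231, reached only 3.66 CPM there. One library stood apart: MDA-MB-231 untreated replicate 1 differed from the other replicates of its group with a chi-square per degree of freedom of 64.5 and 74.5, against 1.84 to 25.3 for the other replicate pairs, the highest of these between vehicle control replicates 1 and 3. Values of called members in comparisons that use it are also given without it. CPM values are relative to all RNA of a library, and in bulk samples fewer expressing cells and less RNA per cell cannot be told apart. The CPM were scaled over the libraries of both lines together, whereas each fit scaled only its own libraries. Ratios of CPM can therefore differ from the fold changes, which matters near the threshold.

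SREBPs bind the sterol regulatory element, and most of their targets also carry a CCAAT box, which the partner factor NF-Y binds. Upstream windows of 250 bases (RefSeq, GRCh38.p14) were held for 23 of the 26 genes, not for ACAT2, FDFT1 and SQLE, and were searched on both strands for TCACNCCAC and for CCAAT; these letters do not overlap each other. TCACNCCAC was found in 1 of the 23 genes (4.35%), SREBF2, against 1.09% of 27305 genes with a window. CCAAT was found in 17 of the 23 (73.9%), against 37% of those genes. The stretches printed here hold every match in the windows of 2 feedback regulators (SREBF2 and INSIG1) and 3 enzymes that rose with CKI in both lines; each reads 5′ to 3′ along the gene's strand, and capitals mark TCACNCCAC, CCAAT or its reverse complement.
SREBF2 (chr22:41832957-41833018, plus strand): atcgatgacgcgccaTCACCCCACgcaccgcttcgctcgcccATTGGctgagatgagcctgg
MSMO1 (chr4:165327469-165327654, plus strand): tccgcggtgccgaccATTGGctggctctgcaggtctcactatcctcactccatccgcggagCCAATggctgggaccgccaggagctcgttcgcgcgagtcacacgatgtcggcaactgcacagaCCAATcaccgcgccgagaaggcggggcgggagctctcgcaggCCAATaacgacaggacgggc
INSIG1 (chr7:155297693-155297727, plus strand): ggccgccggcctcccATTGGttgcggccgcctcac
HMGCS1 (chr5:43313493-43313582, minus strand): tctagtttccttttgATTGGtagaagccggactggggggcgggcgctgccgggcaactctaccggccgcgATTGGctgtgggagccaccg
MVD (chr16:88663157-88663265, minus strand): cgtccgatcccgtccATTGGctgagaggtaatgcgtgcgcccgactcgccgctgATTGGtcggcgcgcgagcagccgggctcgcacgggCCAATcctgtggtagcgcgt
A match is a run of letters, not a measured binding site, and its absence from a window says nothing on binding elsewhere. The search took these exact letters only, so a window without a match may still hold a variant of the element. In the SREBF2 window the TCACNCCAC match began 133 bases before the start, and its CCAAT box, on the other strand, 106 bases before it. The MSMO1 stretch holds 4 CCAAT boxes, that of MVD 3, that of HMGCS1 2 and that of INSIG1 1.

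CKI in A431 cells raised most of the module. Genes were called changed at an adjusted p under 0.05 (edgeR's quasi-likelihood test with Benjamini-Hochberg adjustment over all genes tested) and a log2 fold change beyond 1 in either direction. Against untreated cells 18 of the 26 genes rose and 0 fell, where 12% of all 15881 genes tested rose and 10.4% fell, and the median log2 fold change was 1.54 for the module and 0.0028 for all genes. DESeq2 also called 18 higher and 0 lower, and 3 members lay below 0 at an unadjusted p under 0.05. Against the vehicle control 15 rose and 0 fell, where 11.3% of all genes rose and 8.22% fell, and the medians were 1.11 and 0.003. DESeq2 called 16 higher and 0 lower there, and 1 member lay below 0 at an unadjusted p under 0.05. Both comparisons use the same CKI libraries.

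**Figure D1:**
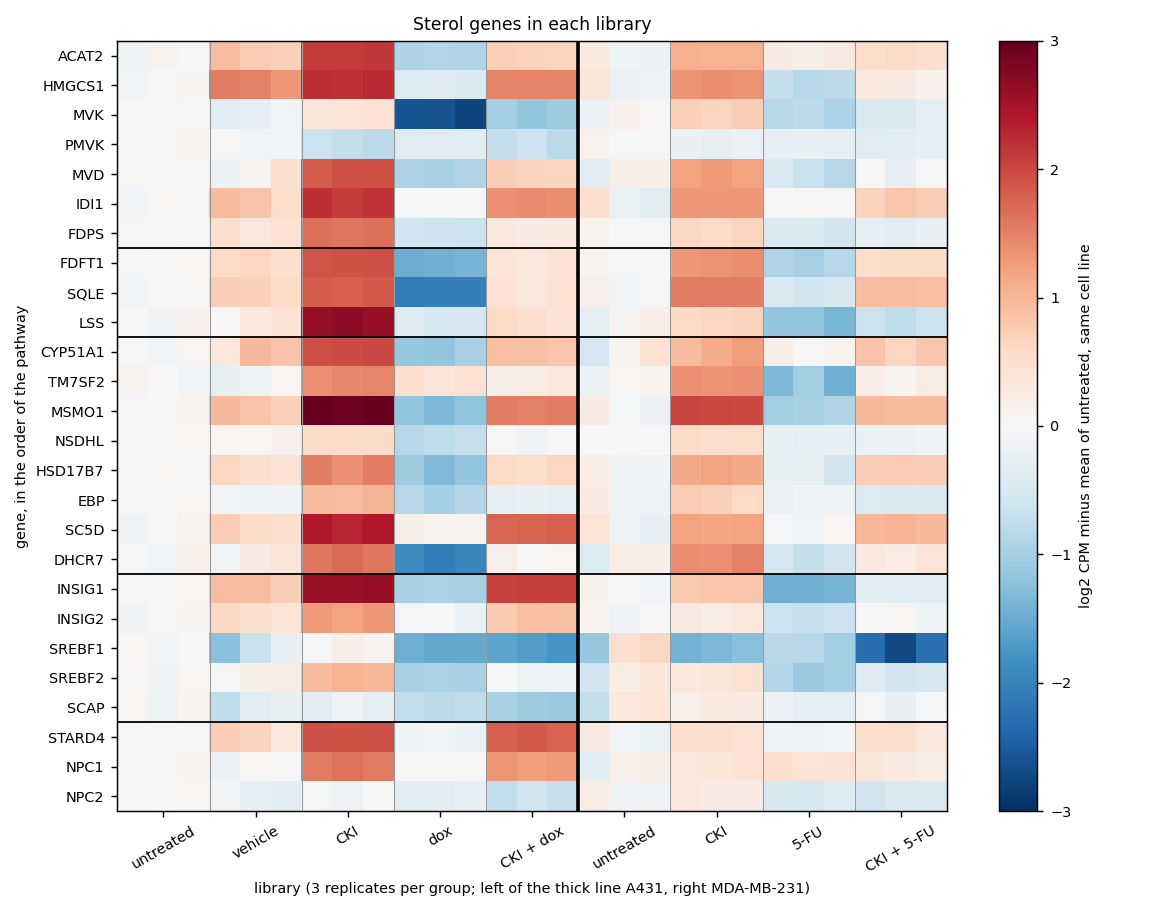
Colour shows log2 CPM in each library (columns, 3 replicates per group, A431 left and MDA-MB-231 right of the thick line) minus the mean of the untreated libraries of the same line, for the 26 genes (rows, pathway order, horizontal lines between the 5 groups of genes). The A431 CKI block is the reddest, with 18 genes called higher, the doxorubicin block is blue with 9 called lower, and the SREBF1 row differs within the vehicle control and within the untreated MDA-MB-231 libraries.

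Among the mevalonate genes 5 of 7 rose against untreated cells and 4 of 7 against the vehicle. HMGCS1, which makes the precursor of mevalonate, had 144, 152 and 160 CPM in the untreated libraries, 445, 432 and 372 in the vehicle libraries and 704, 694 and 721 in the CKI libraries. The 3 ranges did not overlap, with the vehicle libraries between the other groups. HMGCS1 was 4.36-fold higher with CKI than in untreated cells (log2 fold change 2.12 ± 0.064, adjusted p = 5.2e-18), but its value against the vehicle stayed under the threshold (log2 fold change 0.66 ± 0.061, adjusted p = 1.9e-09). IDI1, which isomerises the first isoprenoid, had 114, 126 and 125 CPM untreated, 233, 220 and 174 with vehicle and 563, 524 and 543 with CKI. It rose against both (2.06 ± 0.079, adjusted p = 3.4e-16, and 1.27 ± 0.077, adjusted p = 1.1e-12). The CKI libraries lay above all others. MVD, which decarboxylates mevalonate diphosphate, had 95.2, 92.4 and 90.6 CPM untreated, 82.1, 98.7 and 130 with vehicle and 328, 357 and 346 with CKI. Its untreated and vehicle libraries overlapped, and the CKI libraries lay above both (1.80 ± 0.098, adjusted p = 1.5e-13, and 1.63 ± 0.097, adjusted p = 9.5e-13).

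The thiolase ACAT2 (2.02 and 1.20) and the prenyl synthase FDPS (1.54 and 1.11) also rose against both controls. The 2 kinases of the route behaved otherwise. MVK, the first, had 65.8, 66.3 and 67.8 CPM untreated, 51.8, 55.8 and 63.3 with vehicle and 85, 88.4 and 89.8 with CKI, which lay above both but under the threshold (0.30 ± 0.066, adjusted p = 3e-04, and 0.52 ± 0.067, adjusted p = 3.5e-07). PMVK, the next, was the only mevalonate gene with lower CPM in the CKI libraries, at 20.8, 19.8 and 19 against 31.2, 31.5 and 34.8 untreated, with no overlap and also under the threshold (log2 fold change -0.80 ± 0.074, adjusted p = 1.6e-09).

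All 3 squalene genes rose against both controls. FDFT1, squalene synthase, had 296, 308 and 320 CPM untreated, 469, 481 and 439 with vehicle and 1137, 1156 and 1171 with CKI (1.81 ± 0.054, adjusted p = 4.5e-18, and 1.22 ± 0.053, adjusted p = 3.7e-15). SQLE, the epoxidase that uses oxygen on squalene, had 239, 260 and 260, 425, 417 and 385 and 892, 875 and 907 CPM in the same order (1.72 ± 0.056, adjusted p = 2.2e-17, and 1.02 ± 0.055, adjusted p = 1.6e-13). For both enzymes the vehicle libraries lay between the untreated and CKI libraries without overlap. LSS, the cyclase that forms lanosterol, had 82.7, 77.2 and 91.7, 84.8, 104 and 113 and 518, 536 and 514 CPM. Here vehicle and untreated libraries overlapped, and the rise with CKI was 5.84-fold and 4.83-fold (2.55 ± 0.085, adjusted p = 2.9e-17, and 2.27 ± 0.083, adjusted p = 1.9e-16). Without vehicle control replicate 3 the value of SQLE against the vehicle was 0.98 and no longer called.

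Of the 8 genes from lanosterol to cholesterol, 6 rose against untreated cells and 5 against the vehicle. MSMO1, the methyl sterol oxidase, had 146, 149 and 160 CPM untreated, 296, 274 and 249 with vehicle and 1208, 1147 and 1209 with CKI. The rise was 7.34-fold over untreated and 4.05-fold over vehicle (2.88 ± 0.068, adjusted p = 1.4e-19, and 2.02 ± 0.065, adjusted p = 2.4e-17), and the 3 ranges did not overlap. SC5D, a sterol desaturase, had 23.1, 24.9 and 26, 41.8, 36.1 and 35 and 131, 120 and 131 CPM (2.28 ± 0.073, adjusted p = 1.7e-17, and 1.66 ± 0.070, adjusted p = 2e-15). CYP51A1, the demethylase of lanosterol, had 8.84, 8.24 and 9.1, 10.9, 17 and 15.9 and 33.5, 33.7 and 34.5 CPM (1.87 ± 0.11, adjusted p = 8e-13, and 1.11 ± 0.10, adjusted p = 2.1e-09). Without vehicle control replicate 1 its value against the vehicle was 0.94 and no longer called. The reductases DHCR7 (1.53 and 1.32) and TM7SF2 (1.33 and 1.43) rose against both controls, and HSD17B7, a ketoreductase, rose against untreated cells (1.39) and stayed under the threshold against the vehicle (0.87). The isomerase EBP (0.87 and 0.97) and the dehydrogenase NSDHL (0.48 and 0.40) stayed under the threshold in both, with every CKI library above every control library. With offsets for GC content and transcript length EBP was called against both controls (1.25 and 1.16), and HSD17B7 against the vehicle (1.11).

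The genes of SREBP control split. INSIG1, the retention protein, had 124, 129 and 134 CPM untreated, 245, 244 and 217 with vehicle and 766, 781 and 792 with CKI. The ranges did not overlap, and it rose 5.67-fold and 3.08-fold (2.5 ± 0.057, adjusted p = 1.1e-19, and 1.62 ± 0.055, adjusted p = 5.5e-17). INSIG2, its paralogue, rose against untreated cells (log2 fold change 1.17 ± 0.074, adjusted p = 2e-12) and had a value of 0.66 ± 0.071 (adjusted p = 2.5e-08) against the vehicle. SREBF2, which encodes the SREBP that mainly serves sterol genes, had 314, 286 and 318 CPM untreated, 294, 346 and 356 with vehicle and 594, 634 and 608 with CKI. All CKI libraries lay above both controls, yet the values stayed under the threshold (0.91 ± 0.065, adjusted p = 2e-11, and 0.78 ± 0.065, adjusted p = 3.2e-10). SREBF1, which encodes the SREBP known mainly for fatty acid genes, had 506, 457 and 492 CPM untreated, 203, 304 and 415 with vehicle and 467, 557 and 510 with CKI. The untreated and CKI libraries overlapped (log2 fold change -0.016 ± 0.14, adjusted p = 0.94), and the vehicle libraries were lower than both and spread widely, with a value of 0.63 ± 0.14 (adjusted p = 0.00036) for CKI against the vehicle. The escort SCAP had 87.7, 75.3 and 88.8 CPM untreated, 49.4, 67.2 and 71.7 with vehicle and 66.7, 76.2 and 70 with CKI, and its value was -0.33 ± 0.094 (adjusted p = 0.0033) against untreated and 0.075 ± 0.095 (adjusted p = 0.51) against the vehicle, so neither was called; with GC and length offsets the value against the vehicle turned to -0.18 (adjusted p = 0.0057).

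Of the transport genes, STARD4, a cytosolic sterol carrier, had 33.3, 34.8 and 35.6 CPM untreated, 57.2, 55.8 and 43.4 with vehicle and 131, 131 and 132 with CKI (1.83 ± 0.079, adjusted p = 2.4e-15, and 1.23 ± 0.076, adjusted p = 1.7e-12). NPC1, the membrane protein that releases cholesterol from lysosomes, had 95.4, 94.8 and 102, 86.6, 102 and 93.3 and 290, 302 and 287 CPM (1.49 ± 0.060, adjusted p = 7.3e-16, and 1.54 ± 0.060, adjusted p = 5.1e-16). Both rose, and for NPC1 the vehicle and untreated libraries overlapped. NPC2, its partner in the lysosomal lumen, had 268, 246 and 271 CPM with CKI and 263, 276 and 285 untreated, which overlapped (log2 fold change -0.16 ± 0.065, adjusted p = 0.029); with offsets for GC content and transcript length the value turned to 0.14 (adjusted p = 0.0063).

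The vehicle alone was also set against untreated A431 cells. Of the 26 genes 1 rose and 0 fell, where 1.05% of all genes rose and 1.5% fell; DESeq2 gave the same counts. The gene that rose was HMGCS1 (log2 fold change 1.46 ± 0.063, adjusted p = 2.9e-14), at 1.14 when the fit was offset for GC content and transcript length. A further 13 members passed the adjusted p alone with values above 0. Another 4 passed it with values below 0, the same number as at an unadjusted p under 0.05. In either direction the adjusted p alone called 18 of the 26 members and 6748 of all 15881 genes tested. The module's median was 0.353 against 0 for all genes. INSIG1 at 0.88 ± 0.056 (adjusted p = 4.6e-11) and MSMO1 at 0.86 ± 0.065 (adjusted p = 9.5e-10) were the next in size. Over all genes the log2 fold changes of this comparison had a rank correlation of -0.58 with GC content. With offsets for GC content and transcript length the module's median was 0.389. Offsetting moved some members across 0: MVK went from -0.22 to 0.075, PMVK from -0.058 to 0.30 and TM7SF2 from -0.10 to 0.34. Without vehicle control replicate 3 MVD was at -0.023, against 0.17 with it.

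**Figure D2:**
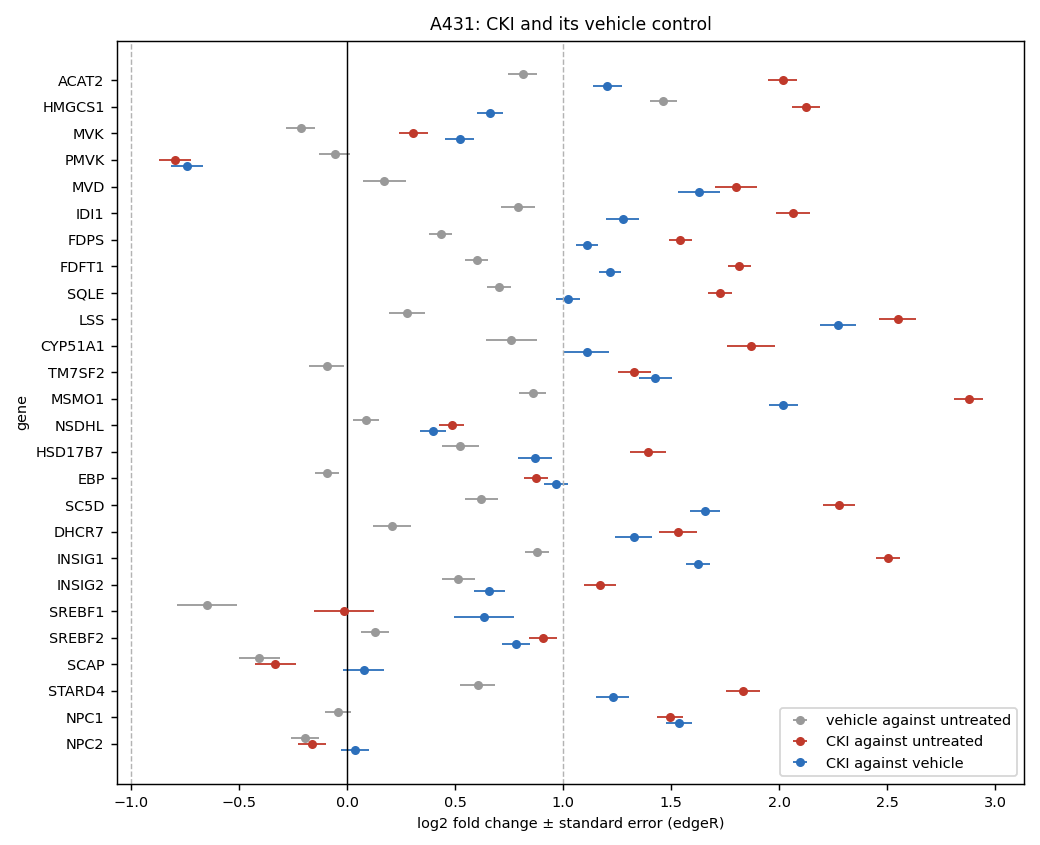
Points show edgeR log2 fold changes with standard errors as bars for each gene in A431 cells (grey, vehicle against untreated; red, CKI against untreated; blue, CKI against vehicle), with dashed lines at the threshold of 1 in either direction. MSMO1 lies farthest right with 2.88 in red, HMGCS1 is the one grey point past the threshold with 1.46, and PMVK has red and blue points below 0.

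Doxorubicin alone lowered part of the module in A431. Of the 26 genes 9 fell and 0 rose against untreated cells, where 14.3% of all genes fell and 23% rose, and the medians were -0.866 for the module and 0.017 for all genes; DESeq2 called 8 lower and 0 higher. At an unadjusted p under 0.05 only 1 member, TM7SF2, lay above 0 (0.42 ± 0.079, adjusted p = 4.7e-05). MVK had 11, 10.8 and 9.8 CPM with doxorubicin against 65.8, 66.3 and 67.8 untreated, far apart, and fell (log2 fold change -2.69 ± 0.079, adjusted p = 2e-18). SQLE had 59.5, 61 and 61.1 CPM against 239, 260 and 260, also without overlap (log2 fold change -2.09 ± 0.059, adjusted p = 9.3e-19). DHCR7 had 31.2, 28 and 30.4 CPM against 113, 111 and 130 (log2 fold change -2.01 ± 0.096, adjusted p = 9.4e-15). The other genes that fell were SREBF1 (-1.54), FDFT1 (-1.47), MSMO1 (-1.28), HSD17B7 (-1.21), CYP51A1 (-1.13) and INSIG1 (-1.01). STARD4, NPC1, SC5D, IDI1 and INSIG2 did not pass the adjusted p, with values from -0.16 to 0.10.

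The scaling and the reference bear on these counts. With library size alone in place of TMM factors the median of all genes was 0.36, 5 members were called lower, and the share of all calls that were higher went from 61.6% to 78.3%. CYP51A1 (-0.78), MSMO1 (-0.93), HSD17B7 (-0.87) and INSIG1 (-0.66) then missed the threshold. With the vehicle control as the reference 13 members were called lower, but SREBF1 was not (-0.89). The doxorubicin libraries are not labelled as given the vehicle, so that reference may be an unlike control. INSIG1 was also lost without untreated replicate 3 (-0.99), and ACAT2, at -0.94, was gained without untreated replicate 1 (-1.02). SREBF2 lay at the threshold (-0.998) and was called when any of the doxorubicin libraries or untreated replicate 2 was left out.

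Adding CKI to doxorubicin raised most of the module. Against doxorubicin alone 16 genes rose and 0 fell, where 6.89% of all genes rose and 8.03% fell, and the medians were 1.51 and 0.03. DESeq2 called 15 higher and 0 lower, and 4 members lay below 0 at an unadjusted p under 0.05. INSIG1 had 65.1, 66.2 and 64.5 CPM with doxorubicin and 531, 541 and 540 with both, a rise of 8.35-fold (log2 fold change 3.06 ± 0.059, adjusted p = 1.4e-20). MSMO1 had 66.3, 59.3 and 65.9 and 440, 436 and 447 CPM (log2 fold change 2.81 ± 0.069, adjusted p = 6.4e-19). SQLE had 59.5, 61 and 61.1 and 340, 322 and 348 CPM (log2 fold change 2.5 ± 0.059, adjusted p = 5e-19). The 2 groups were far apart for each of these genes. MVK, not called for CKI against untreated cells, rose from 11, 10.8 and 9.8 to 32.7, 29.9 and 31.7 CPM (log2 fold change 1.60 ± 0.081, adjusted p = 1.2e-13), without reaching the untreated 65.8 to 67.8 CPM. LSS was at the edge with 1.01 and was lost without CKI plus doxorubicin replicate 1 (0.97), doxorubicin replicate 2 (0.98) or doxorubicin replicate 3. PMVK, TM7SF2, SREBF1, SCAP and NPC2 had every combination library below every doxorubicin library, with values from -0.35 to -0.15. Only 4 of these passed the adjusted p. With GC and length offsets the value of TM7SF2 turned to 0.063 (adjusted p = 0.4).

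The combination against CKI alone lowered genes of the module: 12 fell and 0 rose, where 9.06% of all genes fell and 16.6% rose, and the medians were -0.998 and 0.055. DESeq2 also called 12 lower and 0 higher, and 0 members lay above 0 at an unadjusted p under 0.05. LSS had 518, 536 and 514 CPM with CKI and 127, 119 and 113 with both (log2 fold change -2.04 ± 0.082, adjusted p = 1e-15). SREBF1 had 467, 557 and 510 and 163, 152 and 141 CPM (log2 fold change -1.67 ± 0.14, adjusted p = 5.9e-10). DHCR7 had 351, 383 and 357 and 131, 118 and 123 CPM (log2 fold change -1.47 ± 0.088, adjusted p = 1.1e-12). For these genes the combination libraries lay below all CKI libraries. The other 9 that fell were FDFT1, MVK, MSMO1, ACAT2, SQLE, FDPS, EBP, MVD and TM7SF2, from -1.43 to -1.09. GC and length offsets ended the calls of MVD (-0.85) and TM7SF2 (-0.97) and added CYP51A1 (-1.17) and HSD17B7 (-1.06). STARD4 (-0.037) and PMVK (0.078) did not pass the adjusted p. With library size alone the median of all genes was 0.26, 9 members were called, and the share of calls that were higher went from 64.7% to 76.7%. CYP51A1 (-0.999) and SREBF2 (-0.998) lay at the threshold and were called when CKI replicate 1 was left out, at -1.02 and -1.03.

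The interaction term asks whether CKI acted differently in the presence of doxorubicin. Of the 26 genes 1 was called above 0 and 2 below 0, where 8.56% and 10.9% of all genes were; the medians were -0.0993 and 0.037. MVK was above, at 1.29 ± 0.10 (adjusted p = 5.9e-10). LSS was below, at -1.54 ± 0.12 (adjusted p = 1.9e-10), with a CKI effect of 2.55 alone and 1.01 on top of doxorubicin. TM7SF2 was below too, at -1.5 ± 0.11 (adjusted p = 7.4e-11): it had 28.2, 26 and 27.5 CPM with doxorubicin and 22.7, 23.2 and 25.4 with both, against 21.4, 19.8 and 18.8 untreated and 51.6, 54.3 and 54.9 with CKI. Of these 4 groups CKI alone had the highest libraries for TM7SF2. For the other 23 genes the interaction missed the call, 13 of them past the adjusted p alone. By that measure 16 of the 26 members passed, as did 9117 of all 15881 genes tested, a similar share. With the vehicle control as the reference 6 members were called, and the 3 added were SQLE (1.47), INSIG1 (1.44) and HMGCS1 (1.25, against -0.21 with the untreated reference). That setting replaces only the untreated group. The doxorubicin libraries are not labelled as given the vehicle, so it may compare unlike controls. Library size alone moved the share of calls above 0 from 44% to 33%.

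**Figure D3:**
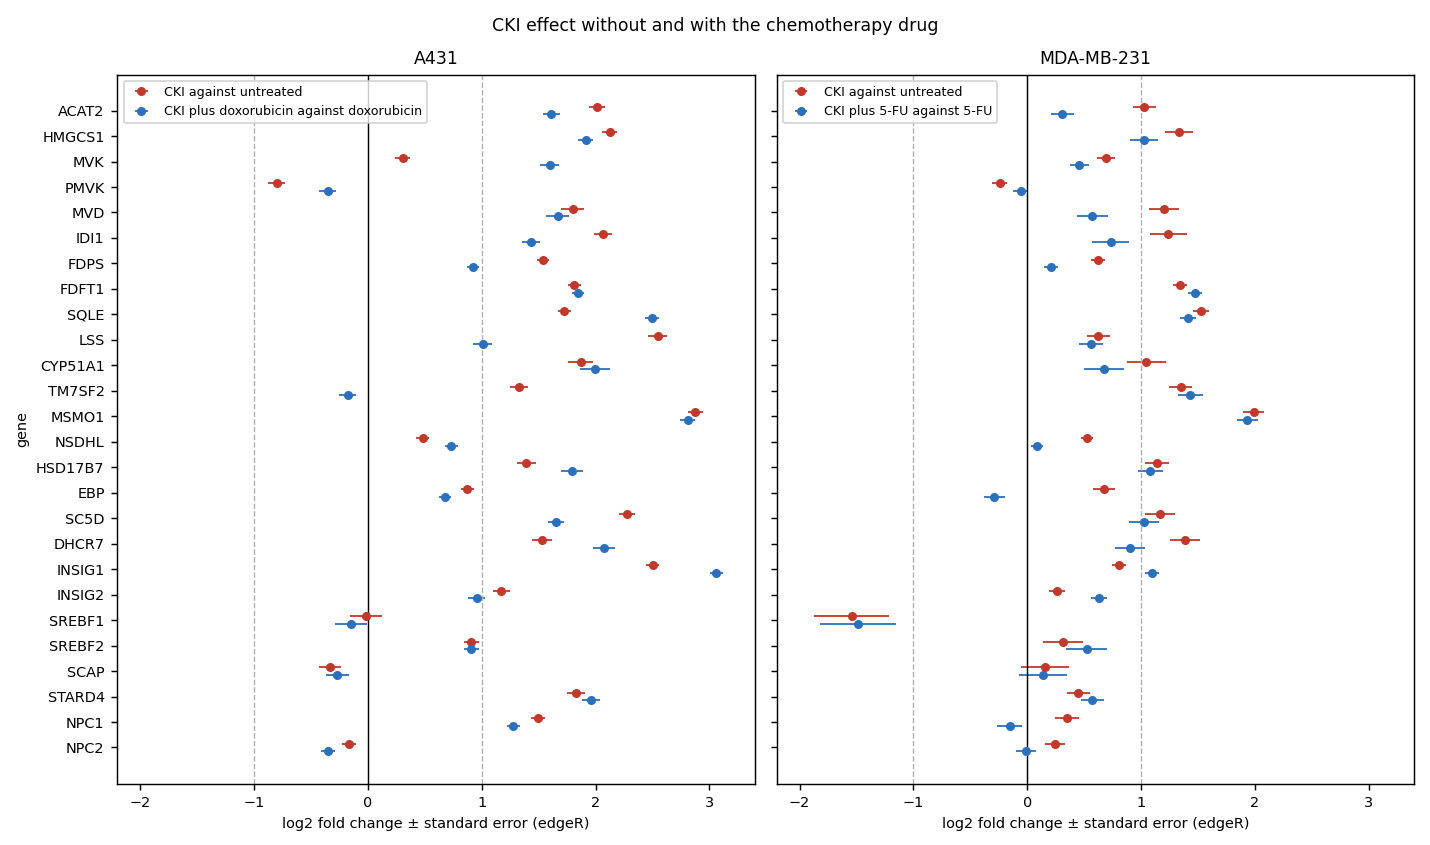
Points show edgeR log2 fold changes with standard errors as bars for CKI against untreated cells (red) and for CKI plus the drug against the drug alone (blue), in A431 with doxorubicin (left) and MDA-MB-231 with 5-FU (right); dashed lines mark the threshold of 1 in either direction. In A431 the blue points of MVK and INSIG1 lie to the right of the red ones and those of LSS and TM7SF2 to the left, and in MDA-MB-231 SREBF1 lies below -1 in both colours.

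In MDA-MB-231 cells CKI raised 12 of the 26 genes and lowered 1, where 3.76% of all 13999 genes tested rose and 2.21% fell, and the medians were 0.746 and -0.0075. DESeq2 gave the same counts. By step, 4 of 7 mevalonate, 2 of 3 squalene and 6 of 8 later enzymes rose, and 0 of the control and transport genes, although 2 and 3 of these lay above 0 at an unadjusted p under 0.05. MSMO1 had 114, 92.2 and 86.3 CPM untreated and 394, 390 and 385 with CKI (log2 fold change 1.99 ± 0.090, adjusted p = 2.4e-08). SQLE had 25.1, 21.3 and 22 and 66.2, 65.6 and 66 CPM (log2 fold change 1.52 ± 0.071, adjusted p = 2.9e-08). DHCR7 had 102, 157 and 155 and 358, 350 and 385 CPM (log2 fold change 1.39 ± 0.13, adjusted p = 1.1e-05). No CKI library of these genes reached down to an untreated one. FDFT1 (1.34), TM7SF2 (1.35), HMGCS1 (1.33), IDI1 (1.24), MVD (1.20), SC5D (1.16), HSD17B7 (1.14), CYP51A1 (1.05) and ACAT2 (1.03) made up the rest. ACAT2 was lost without untreated replicate 2 (0.96) or 3 (0.94), and CYP51A1 without untreated replicate 1 (0.84) or CKI replicate 3 (0.98). Without untreated replicate 1 the other called enzymes were at 2.12 (MSMO1), 1.60 (SQLE), 1.54 (IDI1), 1.54 (HMGCS1), 1.39 (FDFT1), 1.39 (SC5D), 1.26 (TM7SF2), 1.26 (HSD17B7), 1.21 (DHCR7), 1.19 (ACAT2) and 1.05 (MVD), and all of these were still called.

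SREBF1 was the gene that fell in MDA-MB-231. It had 159, 501 and 544 CPM untreated and 131, 138 and 146 with CKI (log2 fold change -1.54 ± 0.33, adjusted p = 0.0032), and the low untreated value is that of the library that stood apart. The CKI libraries still lay below all untreated ones, and without untreated replicate 1 the value was -1.93 with a standard error of 0.077. SREBF2 had 119, 206 and 228 CPM untreated and 222, 227 and 243 with CKI, which overlapped (log2 fold change 0.31 ± 0.17, adjusted p = 0.18; 0.079 without untreated replicate 1). SCAP, at 63.8, 130 and 140 and 117, 130 and 127 CPM, overlapped too, and its value went from 0.15 to -0.12 without that replicate. INSIG1 had 192, 167 and 165 and 302, 310 and 309 CPM, with no overlap, and stayed under the threshold (log2 fold change 0.80 ± 0.062, adjusted p = 2.2e-06).

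5-FU alone lowered 5 of the 26 genes and raised 0, where 7.31% of all genes fell and 6.01% rose, and the medians were -0.497 and -0.0037; DESeq2 also called 5 lower and 0 higher. INSIG1 had 64.5, 64 and 66.3 CPM with 5-FU against 192, 167 and 165 untreated (log2 fold change -1.43 ± 0.064, adjusted p = 1e-08). TM7SF2 had 6.49, 8.05 and 6.15 against 14.7, 17.3 and 18 CPM (log2 fold change -1.27 ± 0.11, adjusted p = 1.5e-06). LSS had 72.2, 71.2 and 62.2 against 134, 170 and 184 CPM (log2 fold change -1.25 ± 0.10, adjusted p = 1e-06). All 3 separated from the untreated libraries. SREBF1 (-1.10 ± 0.33, adjusted p = 0.012) and SREBF2 (-1.06 ± 0.18, adjusted p = 3e-04) also fell. SREBF1 had 198, 193 and 171 CPM with 5-FU, which overlapped the untreated 159 to 544. Both calls depend on the untreated libraries: without untreated replicate 1 they were at -1.48 and -1.29, and without replicate 3 at -0.81 and -0.88, no longer called, as also without replicate 2 (-0.91 and -0.97). They were lost too with GC and length offsets (-0.84 and -0.93), and SREBF1 had an adjusted p of 0.065 with these groups fitted alone. Without untreated replicate 1 INSIG1 was at -1.36, TM7SF2 at -1.36 and LSS at -1.37, all still called. MSMO1, at -0.99, was called when untreated replicate 2 or 3 or 5-FU replicate 3 was left out, at -1.03 to -1.07. At an unadjusted p under 0.05 only 1 member, NPC1, lay above 0 (0.43 ± 0.11, adjusted p = 0.0045). With library size alone the median of all genes was 0.13, 3 members were called, and the share of calls that were higher went from 45.1% to 59.8%.

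CKI on top of 5-FU raised 8 genes and lowered 1 against 5-FU alone, where 5.26% of all genes rose and 4.51% fell, and the medians were 0.571 and 0.0055. DESeq2 gave the same counts. MSMO1 had 47.1, 48.3 and 51.9 CPM with 5-FU and 190, 186 and 186 with both (log2 fold change 1.93 ± 0.091, adjusted p = 2.4e-08), and TM7SF2 had 6.49, 8.05 and 6.15 and 18.9, 17.4 and 19.4 (log2 fold change 1.43 ± 0.11, adjusted p = 1.1e-06). INSIG1 had 64.5, 64 and 66.3 and 140, 136 and 140 CPM (log2 fold change 1.10 ± 0.064, adjusted p = 1.2e-07). These separated fully. FDFT1 (1.47), SQLE (1.41), HSD17B7 (1.08), HMGCS1 (1.02) and SC5D (1.02) rose as well. The last 3 were close to the threshold: HMGCS1 was lost without 5-FU replicate 2 or CKI plus 5-FU replicate 1 (0.99 each), SC5D without 5-FU replicate 2 (0.99) and HSD17B7 without 5-FU replicate 3 (0.98). GC and length offsets also ended the calls of HMGCS1 (0.93) and SC5D (0.89), and added DHCR7 (1.01). SREBF1 fell from 198, 193 and 171 to 72.8, 53.9 and 73.8 CPM (log2 fold change -1.49 ± 0.33, adjusted p = 0.0027), with no overlap.

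Against CKI alone the combination lowered 10 genes and raised 0, where 2.54% of all genes fell and 1.26% rose, and the medians were -0.767 and 0.0063; DESeq2 also called 10 lower and 0 higher, and 0 members lay above 0 at an unadjusted p under 0.05. LSS had 244, 253 and 260 CPM with CKI and 103, 95.5 and 104 with both (log2 fold change -1.31 ± 0.10, adjusted p = 5.2e-06). MVD had 94.7, 99.6 and 95.1 and 40.5, 34.7 and 41.3 CPM (log2 fold change -1.30 ± 0.13, adjusted p = 2.5e-05). Neither gene's groups overlapped. TM7SF2, INSIG1, HMGCS1, EBP, DHCR7, MVK, MSMO1 and SREBF1 fell too, with log2 fold changes from -1.19 to -1.04. Over all genes the log2 fold changes of this comparison had a rank correlation of -0.52 with GC content. Offsets for GC content and transcript length left 5 of the 10 called and took MVK (-0.82), MVD (-0.89), TM7SF2 (-0.88), DHCR7 (-0.90) and SREBF1 (-0.67) under the threshold. SREBF1 lost its call when either of 2 CKI libraries (replicates 2 and 3) or either of 2 combination libraries (replicates 1 and 2) was left out, with adjusted p from 0.052 to 0.093. With library size alone the share of calls that were higher went from 33.2% to 45.8%.

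For the interaction of CKI and 5-FU 0 of the 26 genes were called in either direction, by edgeR and by DESeq2. Over all genes edgeR called 3.04% above and 3.81% below 0. An unadjusted p under 0.05 was found for 10 members. The adjusted p alone was passed by 8 members and by 4396 of all 13999 genes tested, a similar share. EBP was the nearest, at -0.96 ± 0.13 (adjusted p = 0.00029), and it was called without untreated replicate 1 (-1.10) or CKI replicate 3 (-1.01). It had 99.6, 77.7 and 75.9 CPM untreated, 143, 137 and 126 with CKI, 74.1, 77.8 and 75.7 with 5-FU and 62.6, 61.8 and 61.8 with both. CKI libraries were thus above the untreated, and combination libraries below the 5-FU ones.

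**Figure D4:**
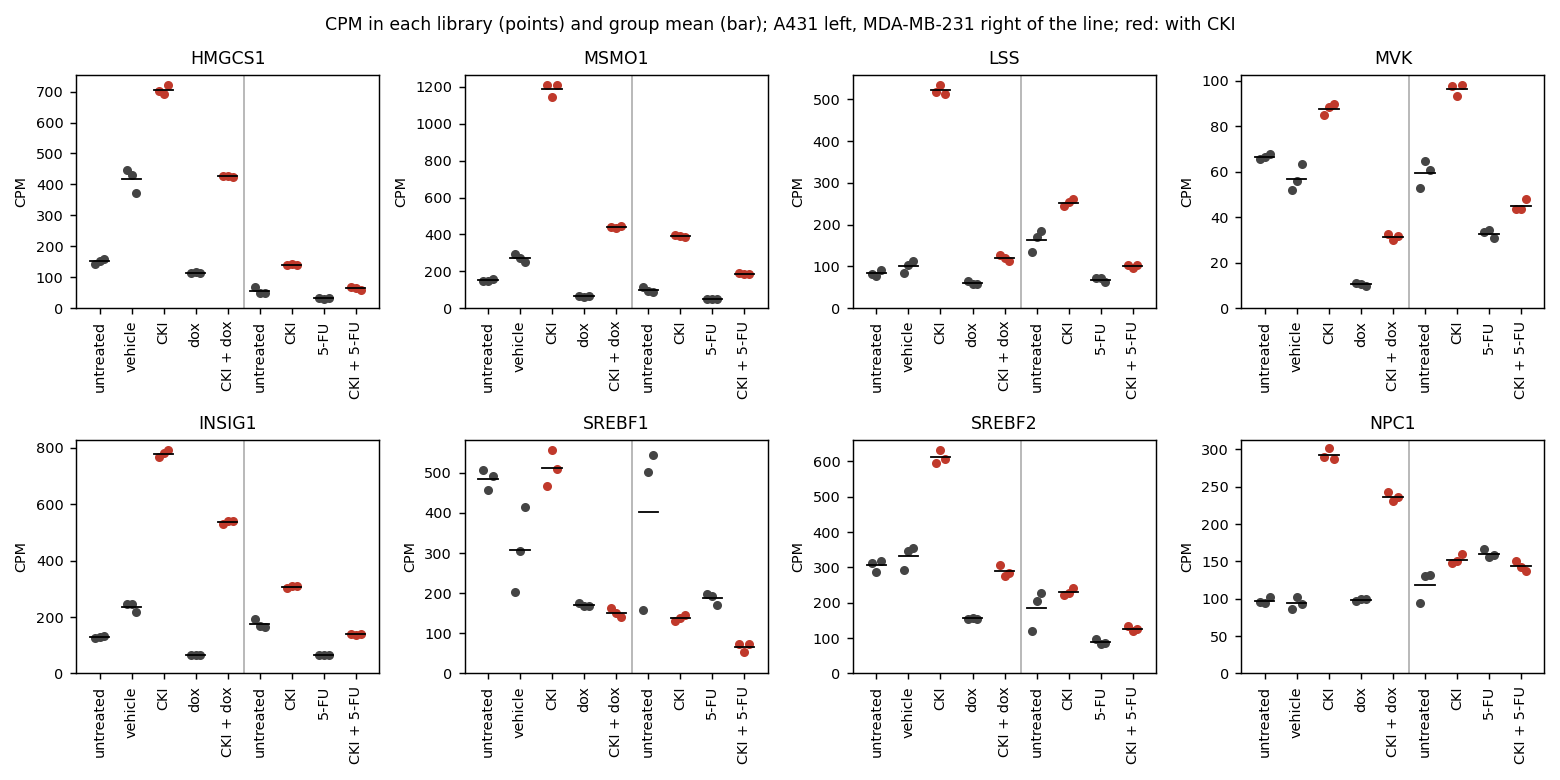
Points show CPM in each library (red with CKI, grey without) and bars the mean of 3 libraries, for 8 genes over the 5 A431 groups (left of the line) and the 4 MDA-MB-231 groups. HMGCS1, MSMO1, LSS, INSIG1, SREBF2 and NPC1 are highest with CKI alone in A431, MVK is lowest with doxorubicin, and SREBF1 has one untreated MDA-MB-231 library, replicate 1, far below the other two.

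The effect of CKI was compared between the lines in 1 joint fit of their untreated and CKI libraries, with the interaction of line and CKI as the test. Of the 26 genes 6 had a larger log2 fold change in A431 and 0 a smaller one, where 8.87% of all 14848 genes tested were called larger and 9.62% smaller; the medians were 0.699 and -0.013. DESeq2 called 7 larger, adding ACAT2, and 0 smaller, and 3 members lay below 0 at an unadjusted p under 0.05. LSS differed most, at 1.93 ± 0.14 (adjusted p = 3e-07): CKI gave 2.55 in A431 and 0.62 in MDA-MB-231. INSIG1 was at 1.71 ± 0.10 (adjusted p = 7e-08), with 2.5 and 0.80 in the lines. Of the transport genes STARD4 (1.39 ± 0.14, adjusted p = 5.4e-06) and NPC1 (1.15 ± 0.15, adjusted p = 3.1e-05) were called, and of the later enzymes SC5D (1.12 ± 0.20, adjusted p = 0.00043). SREBF1 (1.53 ± 0.42, adjusted p = 0.0093) was called with -0.016 in A431 and -1.54 in MDA-MB-231. TM7SF2 (-0.011 ± 0.11, adjusted p = 0.97), NSDHL (-0.032 ± 0.086, adjusted p = 0.81) and DHCR7 (0.15 ± 0.18, adjusted p = 0.54) were not called; with GC and length offsets TM7SF2 was at 0.55 (adjusted p = 0.00013), still under the threshold.

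These interactions rest partly on single libraries and on the choice of control. Without MDA-MB-231 untreated replicate 1 SC5D was at 0.88 and not called, CYP51A1 at 1.02 was, and SREBF1 was at 1.91; LSS (2.04), INSIG1 (1.62), STARD4 (1.24) and NPC1 (1.29) were still called. With GC and length offsets SC5D was at 0.74 and not called, and ACAT2 (1.19), MVD (1.22) and FDPS (1.34) were. With the A431 vehicle control in place of untreated A431, LSS (1.66), NPC1 (1.19) and SREBF1 (2.18) were called, while INSIG1 (0.83), STARD4 (0.79) and SC5D (0.50) were not; MDA-MB-231 has no vehicle group, so that setting compares unlike controls. Without A431 untreated replicate 3, 10 members were called, the added ones being ACAT2, FDPS, INSIG2 and MSMO1 at 1.02 to 1.10.

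**Figure D5:**
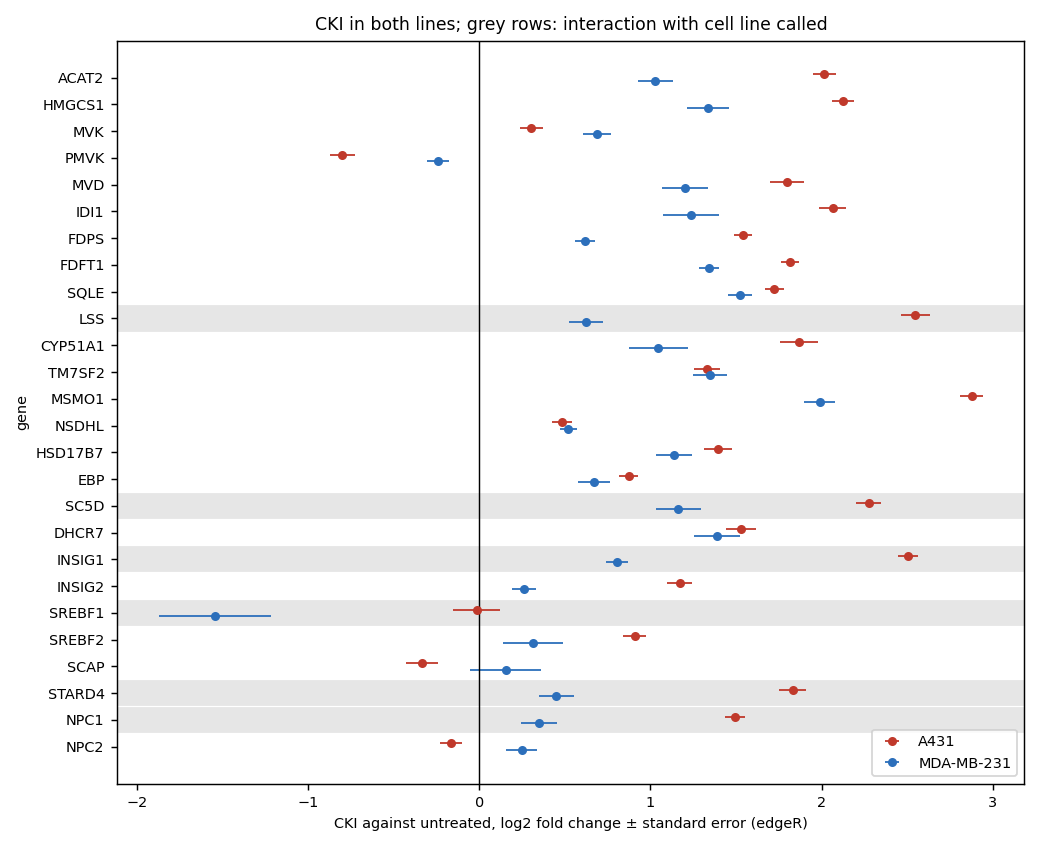
Points show edgeR log2 fold changes of CKI against untreated cells with standard errors as bars, for A431 (red) and MDA-MB-231 (blue); grey rows mark the 6 genes called for the interaction of line and CKI. LSS has 2.55 in A431 and 0.62 in MDA-MB-231, TM7SF2 nearly coincides in both, and SREBF1 lies near 0 in A431 and at -1.54 in MDA-MB-231.

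Untreated, the lines differed in 5 of the 26 genes, all higher in A431, where 22.5% of all genes were higher and 20.4% lower there; the medians were 0.264 and 0.094. DESeq2 called 5 higher and 0 lower, 8 members lay below 0 at an unadjusted p under 0.05, and with library size alone 4 were higher and 2 lower. SQLE had 239, 260 and 260 CPM in A431 and 25.1, 21.3 and 22 in MDA-MB-231 (log2 fold change 3.52 ± 0.083, adjusted p = 2.9e-13), far apart. HMGCS1 (1.5), MVD (1.21), FDFT1 (1.19) and EBP (1.11) were the others. With offsets for GC content and transcript length MVD (0.64) and EBP (0.89) missed the threshold and the module's median was -0.0417. EBP was also lost without A431 untreated replicate 3 (0.99). INSIG2 (-0.91) and LSS (-0.90), lower in A431, were called without that replicate, at -1.03 and -1.06, and LSS also without MDA-MB-231 untreated replicate 1 (-1.02) and with the offsets (-1.11). Without MDA-MB-231 untreated replicate 1 the 5 called genes were at 3.60 (SQLE), 1.71 (HMGCS1), 1.25 (EBP), 1.24 (FDFT1) and 1.06 (MVD).

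Levels between genes were compared as CPM per kilobase of the canonical transcript. In untreated A431 the 26 genes ran from 2.77 CPM per kilobase for CYP51A1 to 335 for NPC2, with EBP at 156, FDFT1 at 151 and FDPS at 107 next to the top. With CKI FDFT1 (568), MSMO1 (534) and FDPS stood above NPC2 (318). In untreated MDA-MB-231 SQLE had 7.70, and with CKI 22.3, against 85.4 and 301 in A431. Over all 9 groups the highest mean CPM of 22 of the 26 genes was in A431 with CKI. The share of all genes highest in that group was not computed, so the count has no yardstick. The exceptions were MVK and SCAP, highest in MDA-MB-231 with CKI, PMVK, highest in untreated MDA-MB-231, and NPC2, highest in untreated A431. The ratio of the highest to the lowest group mean was 55.4 for SQLE, 24.2 for MSMO1 and 22.2 for HMGCS1, and 2.15 for PMVK and 2.17 for NPC2.

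Some counts may be shared between genes. In the GRCh37 annotation 16 of the 26 genes have exon bases in common with another gene, and the libraries do not keep strand. The overlap is largest for CYP51A1, with 68.2% of its exon bases also in an unnamed locus on the same strand, then for HMGCS1 (37.7%, a locus on the other strand), EBP (36.4%), FDPS (18.6%, RUSC1-AS1) and ACAT2 (17.2%, TCP1). HSD17B7 and FDPS also have near-identical pseudogene copies. How such reads were counted is not given in the sources used here, so these levels, CYP51A1's above all, are uncertain, and the part of the overlaps in the results was not tested.

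Genes beside the module were followed in 4 lists of 40 genes in all; over all genes tested, CKI against untreated cells gave 12% higher and 10.4% lower in A431 and 3.76% and 2.21% in MDA-MB-231. Of the 10 genes of SREBP cleavage and ER turnover, 0 were called for CKI in either line by edgeR, although 5 lay above and 3 below 0 in A431, and 2 above and 3 below in MDA-MB-231, at an unadjusted p under 0.05. Of 11 genes of the isoprenoid branches 0 rose and 2 fell with CKI in A431, and 0 were called in MDA-MB-231, where 2 lay above and 2 below 0 at an unadjusted p under 0.05. PDSS1, which builds the ubiquinone tail, had 15.6 to 18.1 CPM in untreated and 4.23 to 4.95 CPM in CKI-treated A431 cells (log2 fold change -1.97 ± 0.11, adjusted p = 2.6e-13), and COQ2, which attaches it, 42.2 to 47.2 and 16.0 to 16.6 CPM (-1.56 ± 0.074, adjusted p = 1.3e-14). Neither gene's groups overlapped, and against the vehicle the values were -1.94 and -1.5.

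Of 12 genes of sterol esters, lysosome and transfer, 1 rose in A431 with CKI against untreated cells, where 12% of all genes rose. LIPA, the lysosomal acid lipase, had 177 to 196 CPM untreated, 209 to 246 with vehicle and 570 to 605 with CKI (log2 fold change 1.57 ± 0.062, adjusted p = 5.7e-16). TMEM97, a sterol-related ER protein, was the 1 gene of the list that fell against the vehicle (-1.12 ± 0.074, adjusted p = 5.8e-12). There 8.22% of all genes fell. Against untreated cells TMEM97 was not called. In MDA-MB-231 2 genes of this list fell with CKI, where 2.21% of all genes fell. MYLIP, a ubiquitin ligase for lipoprotein receptors, had 34.0 to 36.8 CPM untreated and 10.3 to 12.2 with CKI (-1.64 ± 0.078, adjusted p = 3.9e-08), while in A431 it had 12.2 to 13.4 and 23.4 to 29.0 CPM, and the interaction of line and CKI was called (2.55 ± 0.15, adjusted p = 4.5e-08). GRAMD1B, an ER sterol transfer protein, had 4.02 to 4.57 and 1.63 to 2.62 CPM (-1.05 ± 0.20, adjusted p = 0.0018). Of the 7 other sterol enzymes 6 were tested, and CYP27A1 was called higher in A431 with CKI at 0.21 to 0.662 CPM, against at most 0.186 CPM untreated, which is near the level of 3 counts, so no fold is given.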

How the data were processed

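The authors trimmed paired-end reads with Trim Galore 0.3.7 and aligned them to hg19 with STAR 2.5.3a, and deposited raw counts per gene; the counter and its annotation are not given in the sources used here. The deposited counts of 27 libraries were used as they stand, and 24422 of 24566 rows were given symbols. Each line was fitted over all its groups with edgeR 4.0.16 (R 4.3.3; filterByExpr, TMM factors, glmQLFit and glmQLFTest, Benjamini-Hochberg over all genes tested), and the lines jointly over their untreated and CKI-treated libraries; errors after ± are standard errors. The procedure was tested on simulated data. Alternatives were DESeq2 1.42.0, other scaling and filters, a replicate block, offsets for transcript length and GC content, other references and leaving out each library. The labels do not say whether a replicate number marks a shared batch, so the main fits did not pair the samples. Same-numbered libraries did not deviate together over all genes (correlations -0.2 to 0.073), which cannot exclude a shared batch. CPM used TMM factors over all 27 libraries. The members, other gene lists and alternatives were chosen with earlier results of these data known. All 26 members are named, and of the other genes those called for CKI in either line, at most 4 per list. P-values measure the spread between replicates labelled as biological. Exons and transcript lengths were read from a GRCh37 annotation, promoters from RefSeq GRCh38.p14.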

Additional observations from a re-analysis of the deposited data

Results flagged for a closer look

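All 9 results below are differences in the effect of CKI between conditions that passed the interaction test; no single library of the members was tested as an outlier, because the groups hold 3 libraries. Over all genes tested, the interaction with doxorubicin was called above 0 for 8.56% and below 0 for 10.9%. The 3 members called there thus do not set the module apart from all genes. Between the lines 8.87% of all genes were called above 0 and 9.62% below. For CKI with and without doxorubicin in A431, the interaction was 1.29 for MVK, -1.54 for LSS and -1.505 for TM7SF2 on the log2 scale, and leaving out any single library changed none of these 3 calls. With the vehicle control as the reference, which may be an unlike control for the doxorubicin libraries, they were at 1.08, -1.26 and -1.60. For CKI in A431 against MDA-MB-231 it was 1.93 for LSS, 1.12 for SC5D, 1.71 for INSIG1, 1.53 for SREBF1, 1.39 for STARD4 and 1.15 for NPC1. Of these SC5D lost its call without MDA-MB-231 untreated replicate 1 (0.88) and with GC and length offsets (0.74, or 0.73 with a replicate block as well), and SC5D, INSIG1 and STARD4 lost it with the vehicle control as the A431 reference. SREBF1 spanned 159 to 544 CPM within untreated MDA-MB-231, and the part of the library that stood apart in its value of 1.53 is shown by the value without it, 1.91.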

How the results depend on the processing

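No called member changed sign under any alternative. Of the single-gene values under all alternatives 6179 kept their direction and their call or lack of one, 84 lost a call and 255 gained one. The gains include those of the adjusted p alone, which drops the fold threshold and so can only add calls. A further 164 values that had not been called changed sign. Among these was HMGCS1 in the interaction with doxorubicin, called at 1.25 with the vehicle control as the reference, which may be an unlike control there. Leaving out 1 library gave 0 to 1 members called for the interaction of CKI and 5-FU (1 without MDA-MB-231 untreated replicate 1 or CKI replicate 3). It gave 6 to 10 for the interaction of line and CKI (10 without A431 untreated replicate 3). Other counts also moved. They were 8 to 10 for doxorubicin (9 with all libraries) and 4 to 6 for 5-FU (5 with all). For CKI plus 5-FU against 5-FU they were 7 to 9 (9 with all), and for the A431 combination against CKI 13 to 14 (12 with all).

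Without the fold threshold, members and all genes called were, in A431, 10648 genes for CKI against untreated, 24 and 10319 for CKI against vehicle, 18 and 6748 for vehicle against untreated, 21 and 12802 for doxorubicin, 25 and 10102 for the combination against doxorubicin, 24 and 11634 for it against CKI, and 16 and 9117 for the interaction. In MDA-MB-231 they were 24 and 5066 for CKI, 19 and 7992 for 5-FU, 21 and 7059 for the combination against 5-FU, 20 and 5889 for it against CKI, and 8 and 4396 for the interaction, and between lines 19 and 6974 for the interaction and 19 and 11673 untreated. The fold threshold sets these differences by construction. The counts with it ranged from 404 to 6367 genes.

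With at least 10 counts in every library, so fewer genes tested, the genes called were 1989 (CKI against vehicle), 174 (vehicle), 3197 (doxorubicin), 1431 and 1837 (the A431 combination against doxorubicin and CKI), 504 (CKI in MDA-MB-231), 903 and 340 (its combination against 5-FU and CKI) and 3631 (untreated lines). With no filter 6171 were called for the A431 combination against CKI. For vehicle against untreated the count was 263 with these groups fitted alone, and 247 with GC and length offsets or 236 with offsets and a replicate block. For the MDA-MB-231 combination against CKI, offsets left 5 members and 348 genes, and with the block 5 and 345. The cause was not tested.

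With library size alone members called were 5 for doxorubicin, 3 for 5-FU and 1 for the interaction of CKI and 5-FU, and the median of all genes moved to 0.36 with doxorubicin, 0.26 for the A431 combination against CKI, 0.13 with 5-FU, and 0.11 and 0.12 for CKI against untreated and vehicle A431. RLE factors and DESeq2 moved it to 0.11 in the first 2 of these. With the vehicle control as the A431 reference 6 members were called for the interaction with doxorubicin and 3 for that of line and CKI. The first of these settings may compare unlike controls, and the second does. The replicate block alone, although the labels give no pairing, called 7 members between the untreated lines. EBP (0.93) was lost and SC5D (-1.04), INSIG2 and SREBF2 (1.11) were gained. The block left the number of members called unchanged in every other comparison.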
